A study of Homo sapiens and Mus musculus with 10 samples.

Results

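The ID genes and the genes of the E proteins that they bind form a set of 7 among the 63140 gene rows of the human expression table. They are ID1, ID2, ID3 and ID4, and the E-protein genes TCF3, TCF4 and TCF12, chosen by gene symbol. They were measured in A375, an established human melanoma line, in TPM, a transcript abundance per length that is also scaled to the same total in each library. Cells were given the peptide LL-37 at 80 µg/mL for 24 h (LL-37, n = 3) or left untreated (Ctrl, n = 3), and the series text describes both groups as biological triplicates of this 1 line. The table holds no read counts, so the depth behind each value is unknown. LL-37 is the antimicrobial peptide released from cathelicidin, the product of CAMP. The set was proposed after ID1 and ID3 had been found lower in LL-37 replicates 1 and 2 than in Ctrl, so all 7 are described in this contrast without a test of their own.

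E proteins are basic helix-loop-helix transcription factors. They pair with each other or with tissue-specific partners and bind the E-box, a short DNA motif, through their basic regions. ID proteins carry the helix-loop-helix but no basic region, so that a pair of an ID and an E protein cannot bind DNA. In most tissues ID genes are high in proliferating, undifferentiated cells, and they are direct targets of bone morphogenetic protein (BMP) signalling through SMAD transcription factors. In melanocytes and melanoma, ID genes are known for holding back cell cycle inhibitors that E proteins activate.

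The promoters of ID1, ID2 and ID3 are shown, the ID genes that were lower in every LL-37 library than in any Ctrl library. The E-protein gene TCF4 was lower in the same way, and its 10 promoters are not printed. Each line gives the 250 bases before the transcription start, 5′ to 3′ on the strand of the gene (RefSeq, GRCh38.p14). Capitals mark matches on either strand to 6 motifs. These were the E-box, spelled CANNTG, the GC-rich element bound by SMAD proteins, which reads GGCGCC, and their shorter box, CAGAC. The cAMP response element, TGACGTCA, the box of the factor NF-Y, which is CCAAT, and the TATA box, searched as TATAAA, were the others.
ID1 at chr20:31605039-31605288, plus strand: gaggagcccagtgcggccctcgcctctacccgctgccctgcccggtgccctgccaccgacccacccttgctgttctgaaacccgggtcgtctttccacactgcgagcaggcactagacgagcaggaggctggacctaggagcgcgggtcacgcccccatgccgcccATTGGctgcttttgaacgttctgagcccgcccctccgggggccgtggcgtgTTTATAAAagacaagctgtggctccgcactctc
ID2 at chr2:8681806-8682055, plus strand: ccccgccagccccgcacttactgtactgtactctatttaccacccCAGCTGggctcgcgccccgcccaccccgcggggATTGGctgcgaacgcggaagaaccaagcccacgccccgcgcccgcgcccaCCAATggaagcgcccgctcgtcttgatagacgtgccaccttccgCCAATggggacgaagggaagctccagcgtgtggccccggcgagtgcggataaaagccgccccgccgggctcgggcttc
ID3 at chr1:23559502-23559751, minus strand: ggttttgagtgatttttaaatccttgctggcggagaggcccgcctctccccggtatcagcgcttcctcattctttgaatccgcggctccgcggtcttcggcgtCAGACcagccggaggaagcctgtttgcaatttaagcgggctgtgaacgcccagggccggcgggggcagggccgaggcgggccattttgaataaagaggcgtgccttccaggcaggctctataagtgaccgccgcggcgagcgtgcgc
ID1 had 1 CCAAT match, read as ATTGG, whose first base lay 84 bases before the start, and a TATAAA match 31 bases before it that overlapped a second match on the other strand. ID2 had 1 E-box, CAGCTG, 205 bases before the start, and 3 CCAAT matches, at 172, 122 and 78 bases. ID3 had 1 CAGAC match at 147 bases. Neither GGCGCC nor TGACGTCA occurred in these stretches. Over windows of 300 bases, from 250 before to 50 after a start, 68.7% of the 35116 promoters in the table held an E-box, 45.3% CAGAC, 34.6% CCAAT, 19.2% GGCGCC, 11.5% TATAAA and 1.85% TGACGTCA. The table had 1 promoter each for ID1, ID2, ID3, ID4 and TCF3, 5 for TCF12 and 10 for TCF4. Of these 20 windows, 11 held an E-box, 10 CAGAC, 7 CCAAT, 5 TATAAA and 1, of TCF12, GGCGCC. No motif among the 6 was common to ID1, ID2 and ID3.

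One LL-37 library, replicate 3, was unlike the rest. Across tested genes its log2(TPM + 1) values correlated with theirs at 0.949 to 0.963, against 0.985 to 0.992 among the others. The deviation grew with transcript length. In this library the median tested gene lay 0.13 below the Ctrl mean on the log2(TPM + 1) scale among 3473 genes whose longest transcript had 190 to 2056 bases, and 1.04 below it among 3471 genes with 5154 to 34526 bases. In LL-37 replicates 1 and 2 the same medians lay between -0.05 and 0.04. Of 9 markers of the melanocyte lineage, SOX10, S100A1, S100B and MITF passed the filter. Their list summed to 243.8 to 483.2 TPM with LL-37 and 378.6 to 412.1 TPM in Ctrl, mostly SOX10. SOX10 was at 387, 343 and 147 TPM with LL-37 and 287, 266 and 296 TPM in Ctrl. MITF and S100A1 were lower with LL-37 without overlap, against 10.3% of all tested genes, and S100B overlapped. The pigment genes TYR and MLANA, which define pigmented melanocytes, were at or near 0 in all 6 libraries. Of 8 keratinocyte markers, KRT10, KRT14, KRT15 and DSC3 passed the filter, the last 3 at 0.92 to 2.53 TPM, and TP63, KRT1 and DSG3 were at 0 in all libraries. That list summed to 23.1 to 29.1 TPM with LL-37 and 30.9 to 32.1 TPM in Ctrl, mostly KRT10, and so moved with the groups; its part in the results was not tested. The summed levels of short fibroblast, leukocyte and endothelial lists overlapped between the groups. In bulk RNA, fewer cells of a type and less RNA per cell cannot be told apart.

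ID1, ID2 and ID3 were lower with LL-37, with no overlap between the groups and with LL-37 means at 46.8% to 62.2% of those in Ctrl. ID1 (ENSG00000125968, chromosome 20, 31605283 to 31606515, GRCh38) was at 47.9, 52.2 and 44.4 TPM in LL-37 replicates 1 to 3, against 76.7, 90.2 and 94.4 TPM in Ctrl replicates 1 to 3. Each LL-37 library lay below the lowest Ctrl library. The means were 48.2 ± 3.90 TPM with LL-37 and 87.1 ± 9.23 TPM in Ctrl (SD, n = 3 each), a log2 change of -0.84 ± 0.13 (SE). ID1 is one of the genes that BMP signalling switches on fastest.

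ID3 (ENSG00000117318, chromosome 1, 23557918 to 23559794) was at 57.6, 55.8 and 66.3 TPM with LL-37, against 90.5, 97.3 and 100.9 TPM in Ctrl. The groups did not overlap in these TPM values, and the highest LL-37 value was that of replicate 3. Its means were 59.9 ± 5.63 TPM with LL-37 and 96.3 ± 5.28 TPM in Ctrl, a log2 change of -0.68 ± 0.12 (SE). ID3 is a close relative of ID1 and often acts in its place.

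ID2 (ENSG00000115738, chromosome 2, 8678845 to 8684453), whose product also binds the retinoblastoma protein, was far less abundant. It was at 3.66, 3.00 and 2.77 TPM with LL-37, against 6.12, 7.35 and 6.67 TPM in Ctrl. All 3 LL-37 values were below the lowest Ctrl value. Its means were 3.14 ± 0.462 TPM with LL-37 and 6.71 ± 0.616 TPM in Ctrl, a log2 change of -0.90 ± 0.18 (SE). The mean with LL-37 was 46.8% of that in Ctrl, the lowest share among the 7 genes. ID4 (ENSG00000172201, chromosome 6, 19837386 to 19840684), the inhibitor known best from neural tissue, was barely detected. It was at 0.70, 0.68 and 0.46 TPM with LL-37 and at 0.72, 0.57 and 0.62 TPM in Ctrl, and the groups overlapped. It was the 1 member of the 7 that did not reach 1 TPM in at least 3 libraries, the filter for the fit across genes.

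**Figure D1:**
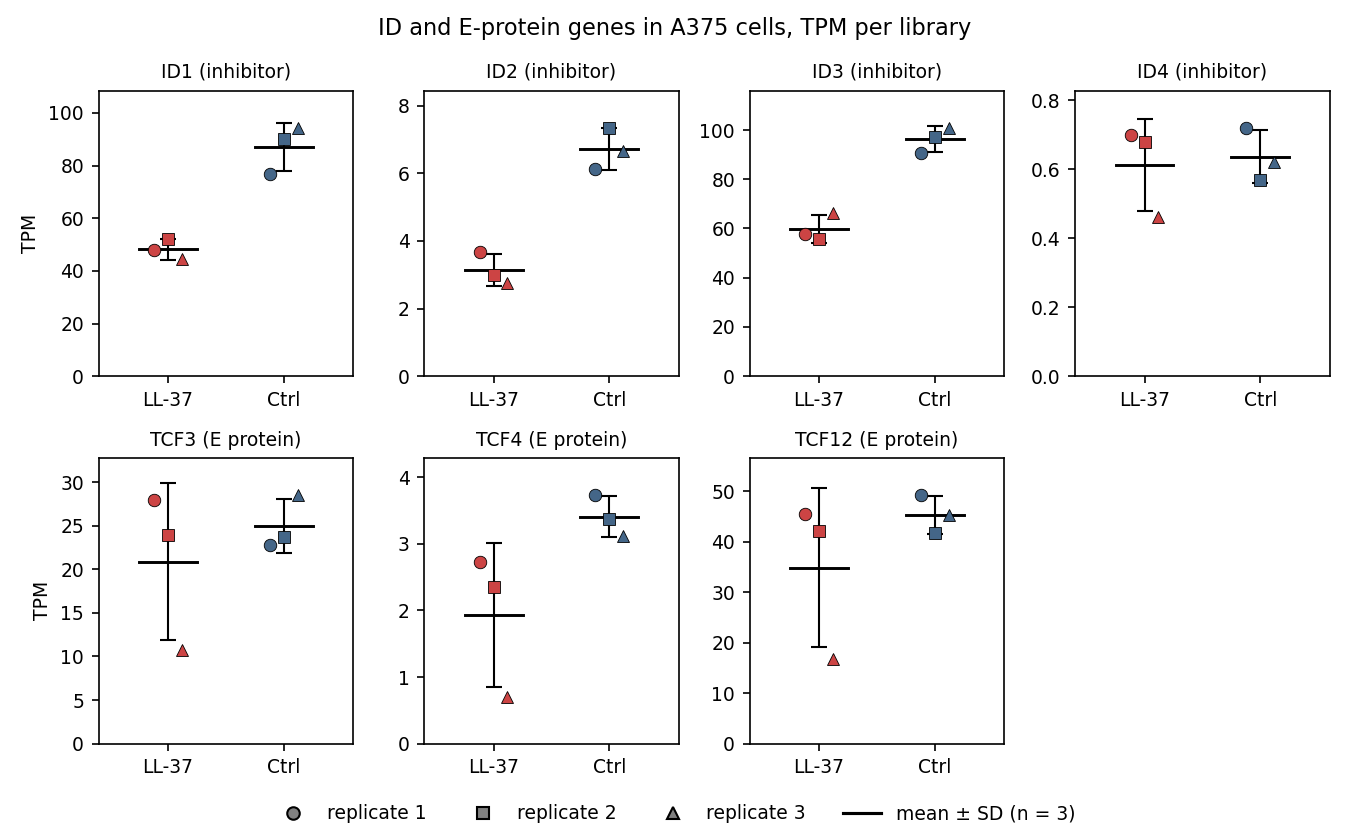
TPM of the 7 genes in each A375 library, with LL-37 (left, red) and Ctrl (right, blue) in each panel, where symbols mark the replicate, horizontal lines the group mean and error bars the SD (n = 3). ID1, ID2, ID3 and TCF4 were lower in all LL-37 libraries than in any Ctrl library, while TCF3 and TCF12 were low in LL-37 replicate 3 alone.

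TCF12 and TCF3 did not show this separation of the groups, and TCF4 did. TCF12 (ENSG00000140262, chromosome 15, 56918623 to 57299281), the most abundant E-protein gene here, was at 45.6, 42.2 and 16.9 TPM with LL-37, against 49.2, 41.6 and 45.3 TPM in Ctrl. LL-37 replicates 1 and 2 lay within the range of Ctrl, and replicate 3 lay at 37.1% of the Ctrl mean. TCF3 (ENSG00000071564, chromosome 19, 1609290 to 1652605), which encodes the best studied E proteins of lymphocytes, was at 27.9, 23.9 and 10.8 TPM with LL-37, against 22.7, 23.7 and 28.5 TPM in Ctrl. Here too LL-37 replicates 1 and 2 lay within the Ctrl range, and replicate 3, at 43.2% of the Ctrl mean, lay below it. From all 6 libraries the log2 changes were -0.49 ± 0.37 (SE) for TCF12 and -0.34 ± 0.34 (SE) for TCF3, against a median of -0.20 over all tested genes.

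TCF4 (ENSG00000196628, chromosome 18, 55222331 to 55664787), an E-protein gene best known from neural and dendritic cell development, was low in A375. It was at 2.73, 2.35 and 0.70 TPM with LL-37, against 3.73, 3.37 and 3.12 TPM in Ctrl. The groups did not overlap, and replicates 1 and 2 were also below the lowest Ctrl value. Its means were 1.93 ± 1.08 TPM with LL-37 and 3.41 ± 0.307 TPM in Ctrl, a log2 change of -0.67 ± 0.31 (SE). Replicate 3 lay at 20.5% of the Ctrl mean, the lowest share of any member in any library.

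Without LL-37 replicate 3, ID1, ID2 and ID3 remained low, TCF12 and TCF3 were near the Ctrl mean, and TCF4 lay between. The log2 changes were then -0.83 ± 0.13 for ID2, -0.78 ± 0.10 for ID1, -0.75 ± 0.07 for ID3 and -0.32 ± 0.14 for TCF4 (SE, 2 LL-37 and 3 Ctrl libraries). TCF12 was at -0.04 ± 0.09 and TCF3 at 0.05 ± 0.12. The median over all tested genes was then 0.00, and the means of LL-37 replicates 1 and 2 were 96.7% of Ctrl for TCF12, 104% for TCF3 and 74.6% for TCF4. In the order of log2 change from the lowest among 14303 tested genes, ID2 was 49th, ID1 56th and ID3 64th. TCF4 was 550th, TCF12 5318th and TCF3 9582nd. ID1 and ID3 were chosen for low values in this same comparison, so these ranks are not read as a result.

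**Figure D2:**
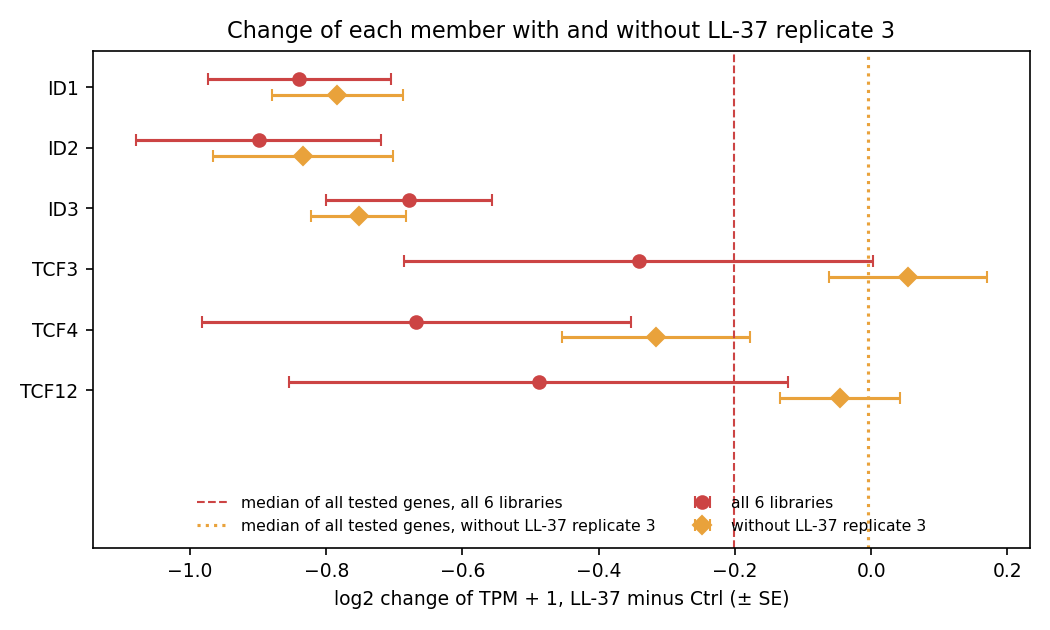
Log2 change of TPM + 1, LL-37 minus Ctrl, for the 6 members past the filter, with SE bars, from all 6 libraries (red circles) and without LL-37 replicate 3 (orange diamonds). Vertical lines give the medians of all tested genes, -0.20 and 0.00, and ID1, ID2 and ID3 stay between -0.68 and -0.90 in both.

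In the fit of all 6 libraries, 0 of the 14399 tested genes (0%) passed an adjusted p of 0.05 in limma, and 363 (2.52%) had an unadjusted p under 0.05. No member passed. Without LL-37 replicate 3, the number past the threshold was 16 of 14303 (0.112%), of which 6 were higher (0.0419% of tested genes) and 10 lower (0.0699%). Before adjustment, 1289 genes (9.01%) had a p under 0.05 in that fit. ID1 and ID3 were 2 of the 10. This is the result from which the set was chosen, so nothing is read from it. ID1, ID2, ID3 and TCF4, 4 of the 6 members past the filter, were lower with no overlap between groups. This was so with LL-37 replicate 3 included, and therefore also without it. Over all tested genes, 10.3% were lower without overlap when it was included and 12.9% when it was not. No member was higher without overlap, against 2.13% and 12.2% of all genes. ID1 and ID3 were chosen for their low values in this contrast, so the share of members is not read as a result. The direction of ID1 and ID2, and the lack of overlap between their groups, held in all 18 settings of the fit that were run. Only settings that rescaled the libraries could have made the groups overlap. Leaving out a library or changing the pseudocount, filter, block or trend cannot. ID3 was lower in the same 18 settings, but its groups overlapped with median-of-ratios scaling. That scaling multiplied LL-37 replicate 3 up by the most, and moved the median of all genes from -0.20 to 0.01. It placed ID3 in LL-37 replicate 3 at 0.21 above the Ctrl mean, ID1 at 0.22 below it and ID2 at 0.44 below it on the log2 scale. The lowest Ctrl library of ID1, replicate 1, lay 0.19 below that mean, so the groups of ID1 were barely apart. With quantile normalization the 3 genes were lower without overlap, at -0.72 for ID1, -0.65 for ID2 and -0.59 for ID3.

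The ID genes have short transcripts and the E-protein genes long ones. The longest annotated transcripts had 1233 bases for ID1, 1251 for ID3, 2041 for ID2 and 2344 for ID4, against 4451 for TCF3, 6061 for TCF12 and 8343 for TCF4 (GENCODE 29). In LL-37 replicate 3 the E-protein genes lay 1.13 (TCF3), 1.37 (TCF12) and 1.37 (TCF4) below the Ctrl mean on the log2(TPM + 1) scale. When the trend with length was removed from each library, those distances shrank to 0.35, 0.42 and 0.30, and those of ID1, ID2 and ID3 in that library were 0.86, 0.75 and 0.44. In replicate 3, ID3 was then about as far below the Ctrl mean as TCF12. With length trends removed from all libraries, the log2 changes were -0.81 for ID1, -0.81 for ID2, -0.65 for ID3, -0.31 for TCF4, -0.17 for TCF12 and -0.08 for TCF3. ID1, ID2, ID3 and TCF4 did not overlap between groups in this setting, and TCF3 and TCF12 did.

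**Figure D3:**
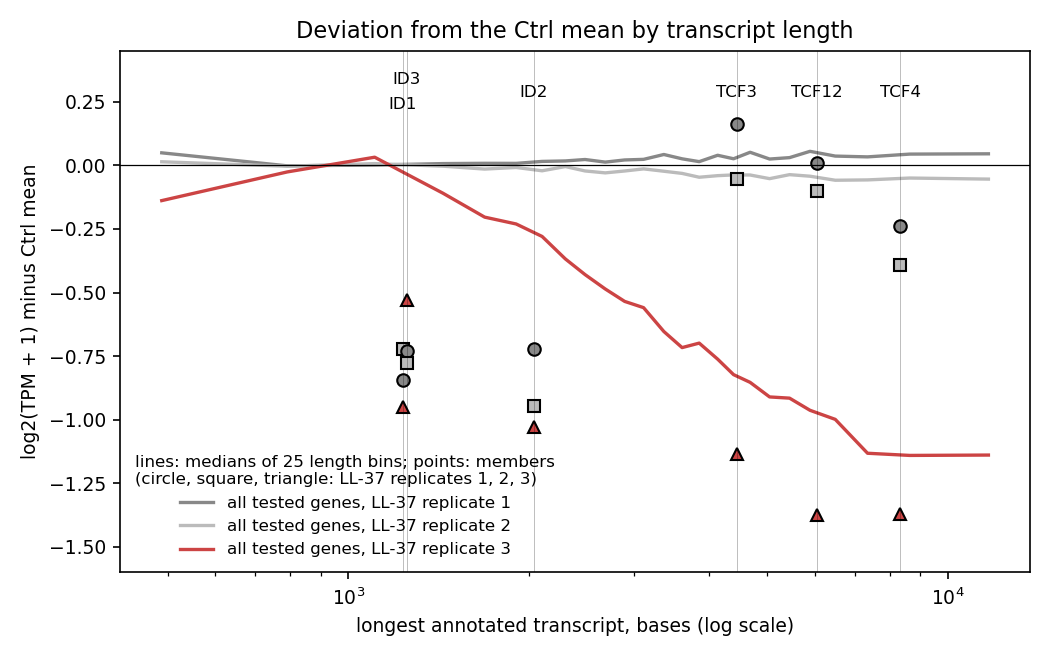
Deviation of log2(TPM + 1) from the Ctrl mean (vertical axis) against the longest annotated transcript in bases (horizontal axis, log scale). Lines are medians of tested genes in 25 length bins for each LL-37 replicate and points are the members. In LL-37 replicates 1 and 2 ID1, ID2 and ID3 lay 0.72 to 0.94 below the Ctrl mean, where the lines are flat, and in replicate 3 all 6 members lay below a line that itself falls with length.

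Summed over the family, ID genes were at 109.8, 111.7 and 113.95 TPM with LL-37, against 174.1, 195.5 and 202.6 TPM in Ctrl. In these TPM values, without further scaling, the LL-37 libraries were close to each other and all lay below Ctrl. ID1 and ID3 together made up 96.0% to 97.2% of this sum with LL-37 and 95.9% to 96.4% in Ctrl. The place of LL-37 replicate 3 depends on the scaling. Median-of-ratios scaling put its ID3 0.21 above the Ctrl mean and its ID1 0.22 below it (log2). With length trends removed, ID1, ID2 and ID3 summed to 107.0, 109.7 and 120.5 with LL-37, against 175.1, 191.9 and 197.3 in Ctrl. E-protein genes summed to 76.2, 68.5 and 28.3 TPM with LL-37, against 75.7, 68.7 and 76.9 TPM in Ctrl. The ratio of the ID sum to the E-protein sum does not depend on the library total. It was 1.44 and 1.63 in LL-37 replicates 1 and 2, against 2.30, 2.84 and 2.64 in Ctrl, and 4.02 in LL-37 replicate 3. Replicates 1 and 2 thus lay below every Ctrl library and replicate 3 above every one, so that the mean log2 ratio was 1.08 ± 0.81 with LL-37 and 1.37 ± 0.16 in Ctrl (SD, n = 3 each). With length trends removed, the ratio was 1.61, 1.73 and 2.43 with LL-37, against 2.64, 2.94 and 2.96 in Ctrl, and the groups did not overlap. These sums are of RNA, and no file here measured the proteins.

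**Figure D4:**
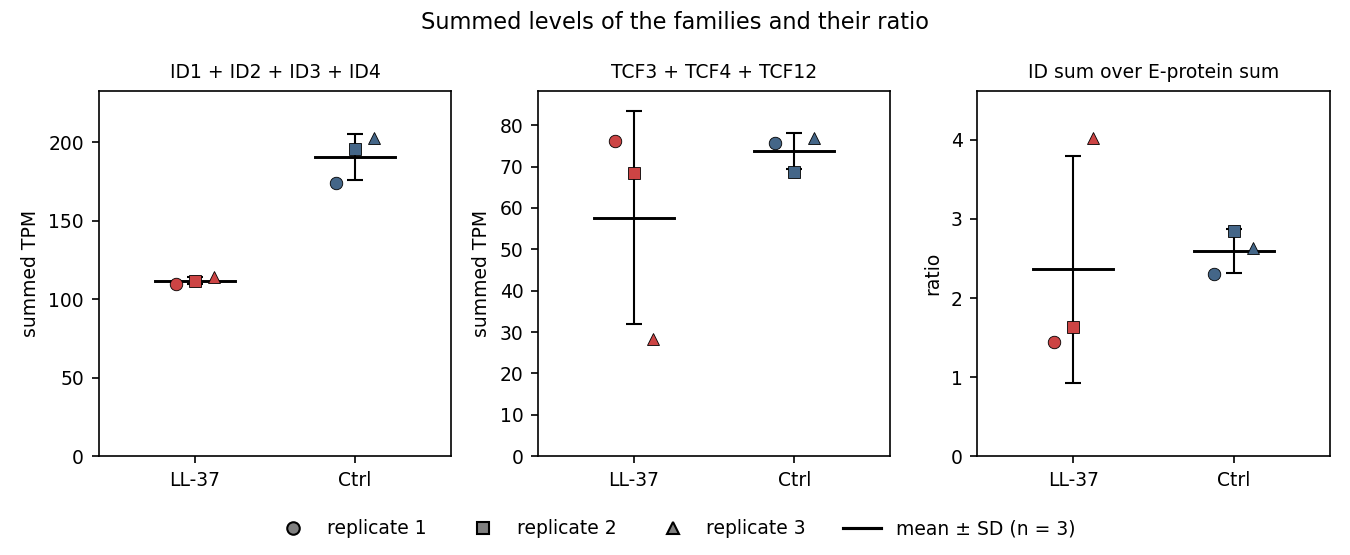
Summed TPM of the ID genes, summed TPM of the E-protein genes and the ratio of these sums in each library, with LL-37 left of Ctrl; symbols mark the replicate, lines the mean and bars the SD (n = 3). Without further scaling, the ID sum was 109.8 to 113.95 TPM with LL-37 and 174.1 to 202.6 TPM in Ctrl. The ratio was 1.44 and 1.63 in LL-37 replicates 1 and 2 and 4.02 in replicate 3.

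In both groups the order of mean levels was ID3, ID1, TCF12, TCF3, ID2, TCF4 and ID4. In Ctrl the ranges of ID3 and ID1 overlapped, although ID3 was above ID1 in each of the 3 libraries, and each other pair of neighbours was separate. With LL-37 the ranges overlapped for ID1 and TCF12, TCF12 and TCF3, and TCF4 and ID4. In LL-37 replicates 1 and 2 alone, no pair of neighbours overlapped. In LL-37 replicates 1 to 3, ID1 was at 47.9, 52.2 and 44.4 TPM and TCF12 at 45.6, 42.2 and 16.9 TPM. Their mean levels in Ctrl were 87.1 and 45.4 TPM. ID1 was 0.83, 0.94 and 0.67 times the level of ID3 with LL-37, against 0.85, 0.93 and 0.94 times in Ctrl.

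Among rows whose symbols derive from those of the members, 1 was above 1 TPM. TCF12-DT, a noncoding transcript that starts beside TCF12, was at 8.27, 9.11 and 7.57 TPM with LL-37 and 7.75, 9.34 and 9.13 TPM in Ctrl, and the groups overlapped. ID2-AS1 stayed below 1 TPM in all libraries, and ID2B, TCF3P1, TCF4-AS1 and TCF4-AS2 were listed at 0 in all. The sources used here do not say how reads shared between such rows were assigned.

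Genes with patterns like those of ID1 and ID3 were ranked by distance. The measure was the root mean square distance between centred log2(TPM + 1) profiles over the 6 libraries, among 9963 other genes with a mean of at least 5 TPM. The 5 genes nearest to ID1 were ALDOC (0.09), SERPINF1 (0.12), BST2 (0.13), ENSG00000278133 (0.14) and SPARC (0.15). The 5 nearest to ID3 were LPAR6 (0.08), CDKN2C (0.12), CKB (0.13), SPP1 (0.14) and TMEM45A (0.14). ID3 was 8th in the order of distance from ID1, and ID1 was 11th in that from ID3, at a distance of 0.17. TCF3 was 5398th and TCF12 6224th from ID1. ID2, ID4 and TCF4 had means below 5 TPM and were not ranked. Both ID1 and ID3 were chosen for low values in this contrast, so their nearness is not read as a result. The distances of TCF3 and TCF12 include LL-37 replicate 3, where they lay 1.13 and 1.37 below the Ctrl mean.

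Genes upstream of the ID genes and around the E proteins were read from 15 lists with 160 genes in all, of which 102 passed the filter. None passed in the fit of 6 libraries, and FN1 alone passed when LL-37 replicate 3 was left out, against 0.112% of all tested genes. Their median log2 change was -0.30 from 6 libraries, against -0.20 over all genes, and without LL-37 replicate 3 both medians were 0.00. Without LL-37 replicate 3, groups did not overlap for 15 lower and 17 higher genes of the 102, against 12.9% and 12.2% of all tested genes.

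No gene of the BMP lists passed in either fit. Of 13 ligand genes 4 were measured, of 12 receptor and co-receptor genes 8, of 6 SMAD transducers 5 and of 8 SMAD inhibitors 8, and their median log2 changes without LL-37 replicate 3 were 0.11, -0.05, 0.04 and 0.06. By mean over the 6 libraries, the 2 most abundant genes of each list were BMP2 and BMP8B, the receptor partners ENG and RGMB, SMAD2 and SMAD3, and the inhibitors SKI and BAMBI. The 11 measured of 15 other BMP target genes, MSX1 and BAMBI the most abundant, had a median of -0.05. Of these 11, 4 were lower and 3 higher without overlap when LL-37 replicate 3 was left out, against 12.9% and 12.2% of all tested genes. BAMBI, a decoy receptor that BMP also induces, was at 22.1, 19.9 and 16.2 TPM with LL-37 and 16.0, 17.3 and 17.0 TPM in Ctrl. SMAD6, the feedback inhibitor that BMP induces together with ID1, was at 1.31, 1.23 and 0.42 TPM with LL-37, against 1.69, 1.62 and 1.47 TPM in Ctrl, and did not pass (limma, adjusted p = 0.739 from 6 libraries, 0.809 if LL-37 replicate 3 is left out). BAMBI did not pass either (limma, adjusted p = 0.739 and 0.317). SMAD6 was chosen after its values were seen. SMAD7, another SMAD inhibitor among the BMP target genes, was not lower in LL-37 replicates 1 and 2. It was at 3.37, 3.66 and 1.02 TPM with LL-37 and 3.26, 3.32 and 3.30 TPM in Ctrl. Of 14 extracellular antagonists 6 were measured, and FST, follistatin, and FSTL3 had the highest means over the 6 libraries. In Ctrl alone CRIM1 of the same list was above FSTL3, with means of 32.5 and 29.5 TPM. FST was at 165.9, 145.2 and 117.2 TPM with LL-37 and 118.4, 109.5 and 108.3 TPM in Ctrl (limma, adjusted p = 0.739 from 6 libraries, 0.0921 if LL-37 replicate 3 is left out).

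In the related TGF-beta branch, 8 of 10 ligand and receptor genes were measured, LTBP3 and INHBA the most abundant. TGFBR2 was lower without overlap (log2 change -0.52, and -0.11 without LL-37 replicate 3). INHBA was higher without overlap when LL-37 replicate 3 was left out (0.25), and the list median was then -0.05. Of 11 target genes 10 were measured, with a median of -0.06 without LL-37 replicate 3. Of these 10, 4 were lower and 2 higher without overlap in that setting, against 12.9% and 12.2% of all tested genes. PMEPA1, 1 of the 2 higher, was at 26.6, 24.0 and 7.53 TPM with LL-37 and 17.9, 18.4 and 19.8 TPM in Ctrl. FN1, the fibronectin gene, was at 20.5, 20.4 and 7.44 TPM with LL-37 and 38.6, 36.2 and 43.7 TPM in Ctrl. Its log2 change was -1.36 ± 0.37 from 6 libraries and -0.91 ± 0.09 when LL-37 replicate 3 was left out (SE, limma, adjusted p = 0.739 and 0.0124). TGFBI, which encodes a matrix protein, and CCN2, a secreted matricellular factor, were also lower without overlap and did not pass. Their log2 changes were -0.81 and -0.64 from 6 libraries, and -0.59 and -0.44 when LL-37 replicate 3 was left out, while the corepressor gene TGIF1 was at 0.13 and 0.07.

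Partners and targets of the E proteins were measured more sparsely. Of 33 class II helix-loop-helix partners 9 were measured, TWIST1 and MESP1 the most abundant, and without LL-37 replicate 3 their median was 0.24. Of these 9, 5 were higher and 0 lower without overlap, against 12.2% and 12.9% of all tested genes. MSC, the gene of musculin, was higher in all 3 LL-37 libraries than in any Ctrl library, at 5.14, 3.50 and 3.12 TPM with LL-37 and 2.77, 3.08 and 3.04 TPM in Ctrl. Of the 9 genes of growth arrest and adhesion that E-boxes control, 6 were measured, with a median of -0.04 without LL-37 replicate 3. Of these 6, 2 were lower and 0 higher without overlap in that setting, against 12.9% and 12.2% of all tested genes. These 2 were the cell cycle inhibitors CDKN1A and CDKN2C, also the most abundant of the list. CDKN2C was at 31.0, 35.7 and 40.5 TPM with LL-37 and 47.9, 50.5 and 51.9 TPM in Ctrl (limma, adjusted p = 0.739 from 6 libraries, 0.0712 if LL-37 replicate 3 is left out). Among transcription factors reported at ID promoters, where SP1 and YY1 were the most abundant, CREB1 was lower without overlap (8.19, 5.36 and 6.12 TPM with LL-37, 10.1, 10.1 and 9.97 TPM in Ctrl). MITF was the only other gene of this list that was lower without overlap. ATF3, known to repress ID1, was higher without overlap, at 7.92, 7.21 and 13.1 TPM with LL-37 and 6.60, 5.52 and 4.96 TPM in Ctrl. None of CREB1, MITF and ATF3 passed. CDC20, which directs ID proteins to degradation in neurons, was higher without overlap, at 20.9, 19.2 and 19.4 TPM with LL-37 and 14.6, 15.4 and 15.6 TPM in Ctrl. COPS5 and WDR48 of the turnover list, BHLHE40 and HES1 among other repressors, ELK3 and ELK1 among other ID-binding proteins, and LDB1 and LMO4 among cofactors had log2 changes of -0.12 to 0.07 without LL-37 replicate 3. The 2 most abundant genes of each list, 29 in all and without FN1, ranged from -0.59 (TGFBI) to 0.47 (FST) when LL-37 replicate 3 was left out, and none of these passed.

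**Figure D5:**
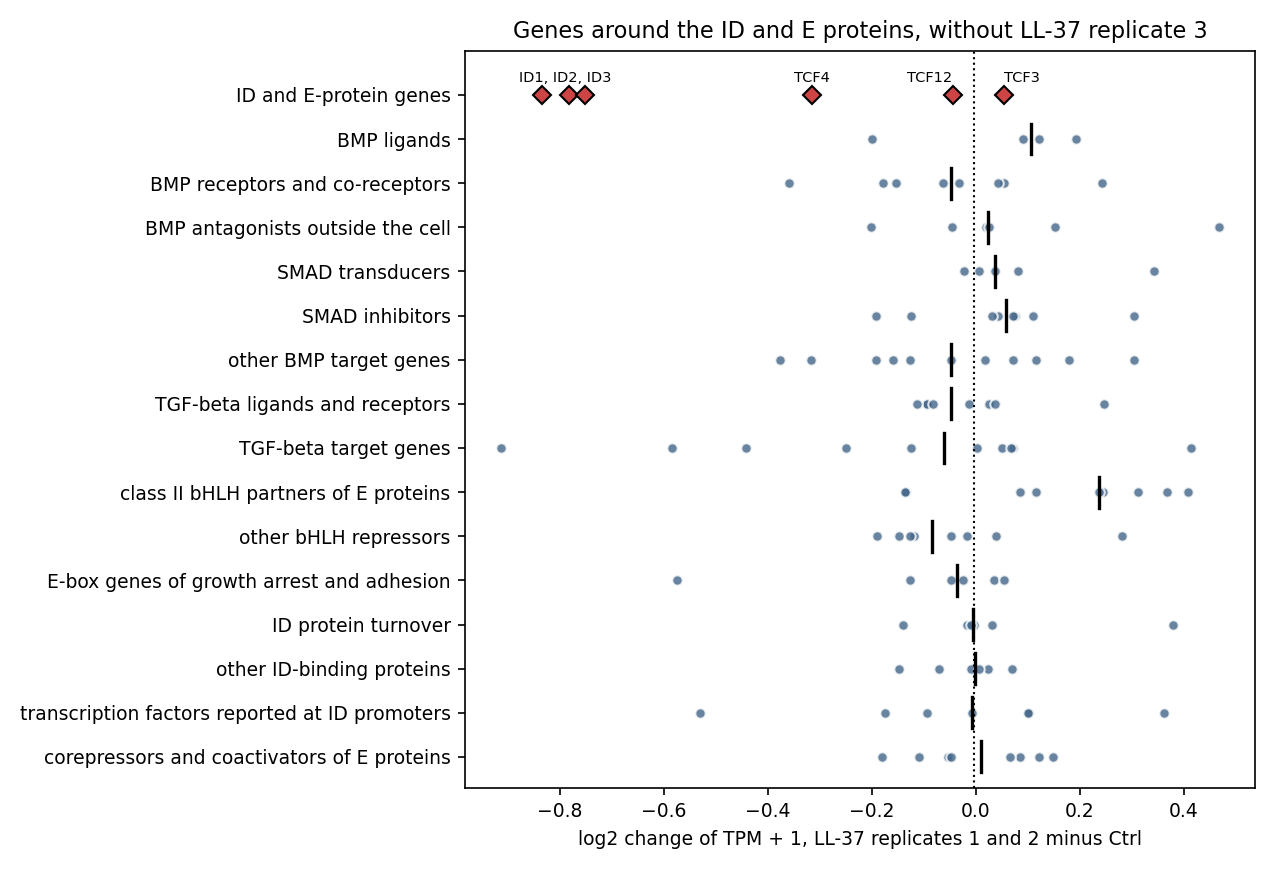
Log2 change of TPM + 1, LL-37 replicates 1 and 2 minus Ctrl, for the 6 members past the filter (red diamonds) and for the measured genes of 15 lists (blue circles, with list medians as vertical bars); the dotted line is the median of all tested genes. ID1, ID2 and ID3 lay between -0.75 and -0.83, and FN1, at -0.91, was the 1 listed gene lower than these.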

How the data were processed

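The labels' protocols give a column-based RNA extraction, which they describe for keratinocytes, and stranded libraries selected for poly(A) RNA. The authors deposited 1 human table of TPM per gene, with 63140 rows, scaled to 1 total per library, and the submitters' processing notes list build GRCh38. Neither the software behind each step nor the depth is stated in the sources used, so no counting interval can be given. The 4 mouse libraries were not analysed here.

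Values were analysed as log2(TPM + 1), so that fold changes of low genes are understated. Genes that reached 1 TPM in 3 or more libraries were fitted with limma 3.58.1 in R 4.3.3 (moderated, intensity trend, two-sided, Benjamini-Hochberg over all tested genes, threshold 0.05). Symbols were matched for 62541 rows. Lengths and gene coordinates came from GENCODE 29. The members and lists were chosen with earlier results of these data known. Genes named beside the members were the 2 most abundant of each list by mean over the 6 libraries, any that passed, up to 5 largest rises and falls without overlap, and the 5 nearest to ID1 and to ID3. SMAD6, SMAD7, CRIM1 and PMEPA1 fall outside this rule and were picked with their values in view. The fit was repeated with each library left out, with length trends removed (loess, span 0.3), with no intensity trend, with replicate number as a block, with quantile or median-of-ratios normalization, with the filter dropped or set to 5 TPM, and with a pseudocount of 0.1 or 5.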

Additional observations from a re-analysis of the deposited data

How the results depend on the processing

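From all 6 libraries, 0 genes and 0 pathway genes passed. Without LL-37 replicate 3 the counts were 16 and 1, with that library left out and median-of-ratios scaling 9 and 1, and with it left out and length trends removed 13 and 1. The 16 genes were 6 higher and 10 lower, the 9 were 5 higher and 4 lower, and the 13 were 6 higher and 7 lower. ID3 was among those that passed in all 3 of these settings and ID1 in the first alone, and the cause was not tested. These settings refit the contrast in which ID1 and ID3 were chosen for their low values, with LL-37 replicate 3 left out. Their passing is therefore not read as a result. Leaving out each library in turn gave 0 to 16 genes and 0 to 1 pathway genes. Every other setting of the fit gave 0 of both, the replicate block included (0 genes and 0 pathway genes, with 172 genes at an unadjusted p under 0.05). Deviations of same-numbered libraries correlated at 0.09, -0.20 and -0.17, and those of differently numbered ones at -0.21 to 0.25. With 3 libraries a group, these values cannot tell whether the numbers pair the libraries.

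The log2 difference of the ratio of the family sums was -0.29 from all 6 libraries and -0.75 to -0.01 when each library was left out, with -0.01 for LL-37 replicate 1, -0.10 for LL-37 replicate 2 and -0.75 for LL-37 replicate 3. Log2 changes over all settings ran from -0.93 to -0.59 for ID1 (-0.59 with median-of-ratios scaling), -1.08 to -0.52 for ID2, -0.76 to -0.43 for ID3 (-0.43 with median-of-ratios scaling, where its groups overlapped), -0.98 to -0.29 for TCF4, -0.74 to -0.04 for TCF12 and -0.59 to 0.06 for TCF3. With 3 libraries a group and no depth, small changes of TCF3, TCF12 and the lowest genes, ID4 and TCF4, cannot be resolved here.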
